A study of Homo sapiens with 9 samples.

Results

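ZNF143 and residual CTCF were mapped against each other in HEC-1-B cells whose CTCF carries an auxin-inducible degron, after 24 h of auxin. The sites are all peaks of the 24 h ZNF143 list and the 24 h CTCF list on chromosomes 1 to 22 and X, 16392 and 13865 peaks of 354101 in the 9 lists of the series. Beyond the deposited peak calls, which themselves rest on enrichment, no measured level chose them. Peaks of the 2 lists that share at least 1 bp are called co-bound here, and all others separate. A second rule asked for summits, the highest points of the peaks, within 200 bp of each other.

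HEC-1-B is an established human uterine adenocarcinoma line, and the assay was ChIP-nexus, a form of ChIP in which exonucleases digest the precipitated fragments up to the protein that covers them. The 24 h and 0 h libraries came from the CTCF-AID genotype with IAA (auxin) for those times, and both time points carry the tagged CTCF. Per the labels, IAA was used at 500 μM in cells that express TiR1, the receptor through which auxin marks the tagged protein for degradation. Whether the line is a single clone is not given in the sources used here. Libraries of ZNF143, CTCF and RAD21 from wild-type cells and of CTCF and RAD21 from ZNF143KO cells, for which the labels name no treatment, served for comparison. Each group was 1 library, so no comparison has a replicate check, no test was made, and all intervals are 95% intervals that cover counting error over peaks only. CTCF protein was not measured here, so its loss is taken from the label, and fewer bound cells cannot be told apart from weaker binding in each cell.

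CTCF is a zinc-finger protein that binds a long DNA motif and halts cohesin, the ring complex of which RAD21 is a subunit, so that chromatin loops end at CTCF sites. ZNF143 is a zinc-finger activator best known from the promoters of small RNA genes and housekeeping genes, and it is often mapped at CTCF sites as well. Mapping both factors after CTCF degradation shows which listed ZNF143 peaks overlap a residual CTCF peak and which do not.

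The 2 libraries differed in depth. Background density, derived from the deposited fold and −log10 p of each peak, was 12.1 reads per kb in the 24 h ZNF143 library and 3.89 in the 24 h CTCF library, against 13.5 and 12.8 at 0 h. The median summit count of the 24 h CTCF list was 10 reads, against 34 at 0 h. These counts are not on an equal scale. The shortest CTCF peak, taken as a read's footprint, was 24 bp at 24 h and 44 bp at 0 h, and a longer footprint raises the count at a summit. For ZNF143 the median count was 15 reads at 24 h and 17 at 0 h, with shortest peaks of 29 and 31 bp. The part of depth in the results on CTCF was not tested.

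After auxin, about 1 in 3 sites of either factor was shared. Of the ZNF143 peaks, 5284 overlapped a residual CTCF peak (32.2%, interval 31.5 to 33.0), and 11108 were separate. Of the CTCF peaks, 5332 overlapped a ZNF143 peak (38.5%, 37.6 to 39.3), and 8533 were separate. At 0 h the same shares were 56.1% (55.6 to 56.6) of 34531 ZNF143 peaks and 63.3% (62.8 to 63.8) of 30374 CTCF peaks. The 0 h lists were thus longer than the 24 h lists, and the part of list length in the lower 24 h shares was not tested. The summit rule gave nearly the same sites. By that rule 33.1% (32.4 to 33.8) of ZNF143 and 38.9% (38.1 to 39.8) of CTCF peaks were co-bound at 24 h. Both rules held for 5266 ZNF143 peaks, overlap alone for 18 and summit distance alone for 157. The co-bound sites were mostly simple pairs: only 43 ZNF143 peaks spanned more than 1 CTCF peak and 8 CTCF peaks more than 1 ZNF143 peak. With a reciprocal overlap of 50% the shares were 20.2% for ZNF143 and 23.9% for CTCF, and in the stronger 50% of each list 19.9% and 23.6%.

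Few sites lay at the edge of either rule. An overlap of only 1 to 10 bp was found at 45 ZNF143 peaks, with a median ZNF143 signal of 7.19 and width of 34 bp. A gap of 0 to 10 bp to the nearest CTCF peak was found at 23, with a signal of 6.86 and a width of 41 bp. Summits lay 181 to 200 bp apart at 21 ZNF143 peaks and 201 to 220 bp apart at 27.

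Separate sites were not near misses. The median distance from a separate ZNF143 summit to the nearest residual CTCF summit was 40193 bp (quartiles 12782 and 101699). Only 5.49% of the separate ZNF143 peaks had a CTCF summit within 1 kb, and 21.1% within 10 kb. From separate CTCF peaks the nearest 24 h ZNF143 summit lay a median 52116 bp away (16360 and 143599), with 3.62% within 1 kb.

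The 2 classes of ZNF143 peaks had different histories in the other libraries. Of the co-bound ZNF143 peaks, 98.7% overlapped a 0 h CTCF peak, whereas 9.75% (9.20 to 10.3) of the separate ones did, against 38.4% of all 24 h ZNF143 peaks. The gap was 89.0 percentage points (88.3 to 89.6). Of all 24 h CTCF peaks, however, 99.1% overlapped a 0 h CTCF peak, and 98.4% to 98.8% a peak of the wild-type and knockout CTCF and RAD21 lists. The class rule thus nearly fixed the shares of co-bound ZNF143 peaks in these lists. When 50% of both peaks had to overlap, 5.86% of the separate peaks lay at a 0 h CTCF peak. In wild-type cells CTCF was found at 99.1% of co-bound and 11.1% of separate ZNF143 peaks (39.4% of all), and RAD21 at 99.1% and 13.7% (41.2% of all). ZNF143 itself was found at both classes before auxin. The 0 h ZNF143 list held 99.6% of co-bound and 88.2% of separate peaks (91.9% of all), and the wild-type list 99.3% and 70.6% (79.8% of all). Separate ZNF143 peaks thus lay mostly where the CTCF and RAD21 lists had no peak, in each of the lists compared.

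**Figure D1:**
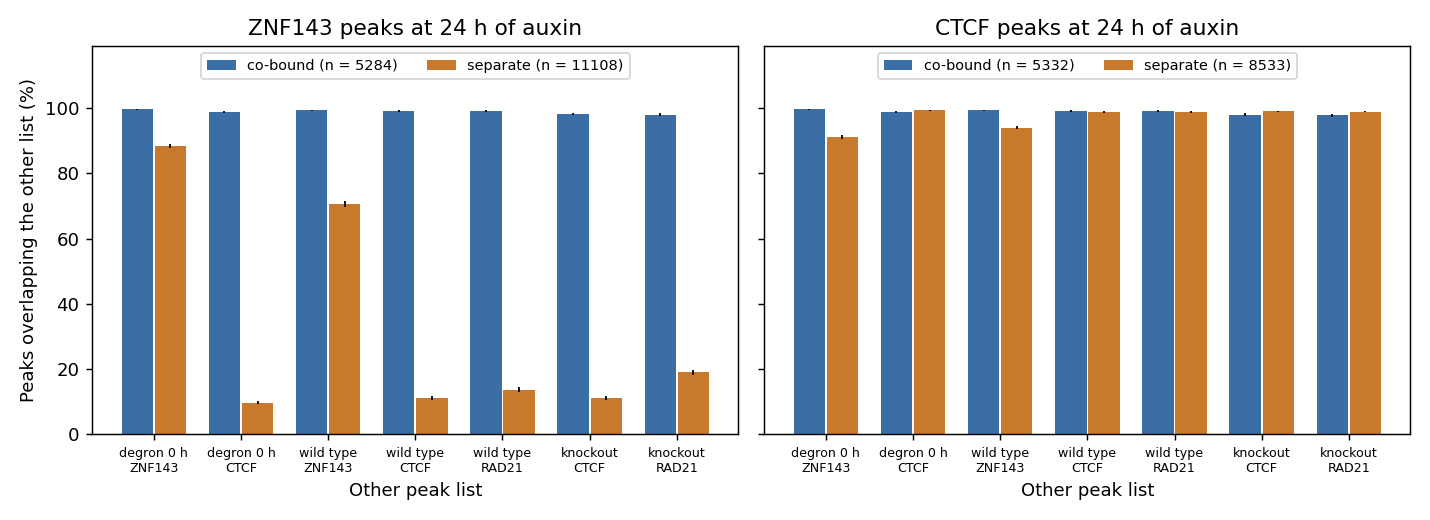
Share of 24 h ZNF143 peaks (left) and 24 h CTCF peaks (right) that overlap a peak of each other list, in percent, for co-bound and separate peaks. Bars are shares and lines their 95% binomial intervals. Separate ZNF143 peaks overlapped CTCF and RAD21 lists in 9.75% to 19.0% of cases, whereas every other bar stands at 70.6% or above.

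Separate CTCF peaks were unlike separate ZNF143 peaks in this. Both classes of CTCF peaks lay at sites with CTCF, cohesin and mostly ZNF143 peaks in the other libraries. RAD21 was found in wild type at 99.0% of co-bound and 98.8% of separate CTCF peaks (98.8% of all), a difference of 0.199 points (-0.176 to 0.549). The 0 h CTCF list held 98.7% and 99.4% (99.1% of all), and the wild-type CTCF list 99.0% and 98.7% (98.8% of all). A ZNF143 peak had been present at 0 h at 99.5% of co-bound and 91.1% (90.5 to 91.7) of separate CTCF peaks (94.3% of all). In wild type ZNF143 was at 99.3% and 94.0% (96.0% of all). So at most separate CTCF sites a ZNF143 peak was listed before auxin and not at 24 h, while a CTCF peak was listed at both times.

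The knockout libraries gave the 24 h classes a further point of comparison, since those cells lack ZNF143 by their label. CTCF was found in the knockout at 97.9% of co-bound and 99.0% of separate 24 h CTCF peaks (98.6% of all), a difference of -1.04 points (-1.50 to -0.622). For knockout RAD21 the shares were 97.7% and 98.9% (98.4% of all), a difference of -1.13 points (-1.60 to -0.685). Among 24 h ZNF143 peaks, knockout CTCF was at 98.1% of co-bound and 11.2% of separate ones (39.3% of all), and knockout RAD21 at 97.98% and 19.0% (44.5% of all). The knockout lists were deeper than the others and made at a stricter threshold, so these shares are compared only between classes within a list.

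Taking both 0 h lists at a time, 98.5% of co-bound ZNF143 peaks had both factors at 0 h. The class rule nearly fixed this share. Of all 24 h CTCF peaks, 99.1% overlapped a 0 h CTCF peak and 94.3% a 0 h ZNF143 peak. Of all 24 h ZNF143 peaks, 38.4% overlapped a 0 h CTCF peak and 91.9% a 0 h ZNF143 peak. Of the separate ZNF143 peaks, 8810 (79.3%) had ZNF143 alone at 0 h, 992 (8.93%) had both factors, 91 had CTCF alone and 1215 (10.9%) had neither. These groups of separate peaks differed in strength. Those with ZNF143 alone at 0 h had a median signal of 11.1 and a width of 96 bp, and 8.16% of them lay at a wild-type RAD21 peak. Those that had both factors at 0 h had a signal of 8.06 and a width of 53 bp, and 71.9% lay at RAD21. Those with neither were the weakest, with a signal of 6.65 and a width of 37 bp. Of the separate CTCF peaks, 7758 (90.9%) had both factors at 0 h and 720 (8.44%) CTCF alone.

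Seen from 0 h, 19229 CTCF peaks overlapped a ZNF143 peak. At 24 h, 5217 of them (27.1%, 26.5 to 27.8) had peaks of both factors, 7663 (39.9%) a CTCF peak only, 899 (4.68%) a ZNF143 peak only and 5450 (28.3%) neither. The sites that had both at 24 h had been the strongest at 0 h. Their median place in the 0 h lists was at percentile 83.9 of CTCF signal and 80.7 of ZNF143 signal. Sites with CTCF only stood at percentiles 73.6 and 57.1, and sites with neither at 47.9 and 32.4. The small group with ZNF143 only was unlike the rest. It was weak in CTCF at 0 h (percentile 20.6) but not in ZNF143 (54.5), and 75.3% of it lay at wild-type RAD21 peaks, against 96.3% to 99.8% in the other 3 groups. All 4 groups depend on which peaks were listed at 24 h, when background density of the CTCF library was 0.305 times that of 0 h. The part of detection in the order of the groups was not tested. Shares of this kind over all 30374 0 h CTCF peaks are not given here. The counts are therefore not read as particular to CTCF sites shared with ZNF143.

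Strength followed opposite orders in the 2 lists at 24 h. The signal, the authors' fold over local background, is used here only within a list. Co-bound ZNF143 peaks had a median signal of 8.08 (quartiles 6.70 and 9.94) and separate ones 9.62 (7.17 and 16.3), a difference of -1.54. Co-bound CTCF peaks had a median of 10.3 (8.35 and 12.5) and separate ones 7.79 (6.40 and 9.40), a difference of 2.49. At 0 h co-bound peaks had the higher median in both lists, by 2.59 for ZNF143 (11.3 against 8.68) and by 10.7 for CTCF (19.96 against 9.28). In wild type the ZNF143 difference was 0.146 (10.2 against 10.1). Summit counts ranked the classes the same way as signal at 24 h, with medians of 12 reads at co-bound and 17 at separate ZNF143 peaks, and of 13 and 8 at CTCF peaks. Local background was higher at separate ZNF143 peaks, at 2.11 times the list's lowest level against 1.45 times at co-bound ones. In the CTCF list it was higher at co-bound peaks, at 2.52 against 1.83 times. The count at a summit has a ceiling, which 7.31% of separate and 1.74% of co-bound ZNF143 peaks reached. Without peaks at the ceiling the ZNF143 difference was -1.02, and with a reciprocal overlap of 50% it was -0.566.

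**Figure D2:**
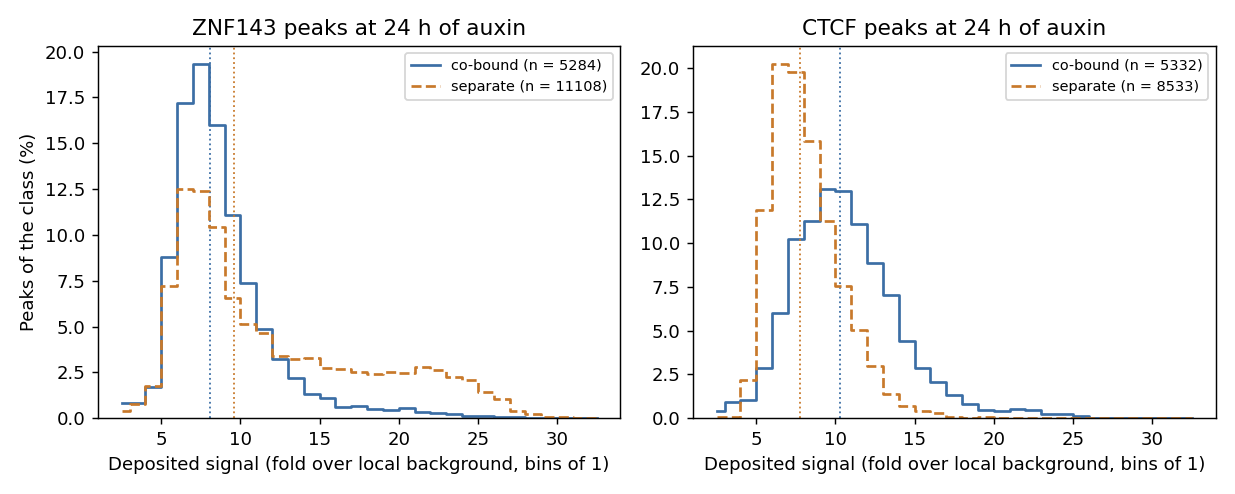
Distribution of the deposited signal (fold over local background, bins of 1) of co-bound and separate peaks at 24 h, as percent of each class, for ZNF143 (left) and CTCF (right). Dotted lines mark the medians, 8.08 and 9.62 for ZNF143 and 10.3 and 7.79 for CTCF. Separate ZNF143 peaks run on in a long shoulder of high signal that co-bound peaks nearly lack.

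The strongest ZNF143 sites seldom overlapped a listed residual CTCF peak. The 24 h CTCF library was the shallower, at 3.89 against 12.1 background reads per kb, so a site without a listed CTCF peak may still hold some CTCF. With the 24 h ZNF143 list divided by signal into 10 groups of equal size, 36.6% to 43.7% of peaks were co-bound in groups 1 to 7. The share was 24.0% (21.9 to 26.1) in group 8, 10.6% (9.11 to 12.1) in group 9 and 4.82% (3.83 to 5.97) in the strongest. Local background also differed along this order, with a median of 1.16 reads in the strongest group and 0.534 in group 5, and its part was not tested. At 0 h the share was highest in group 7, at 75.01%, and stood at 37.5% (35.8 to 39.1) in the strongest group. The CTCF list ran the other way. From group 2 the co-bound share was higher in each stronger group, from 13.6% (11.8 to 15.5) to 81.1% (78.9 to 83.1) in the strongest. At 0 h the strongest group reached 99.5%.

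**Figure D3:**
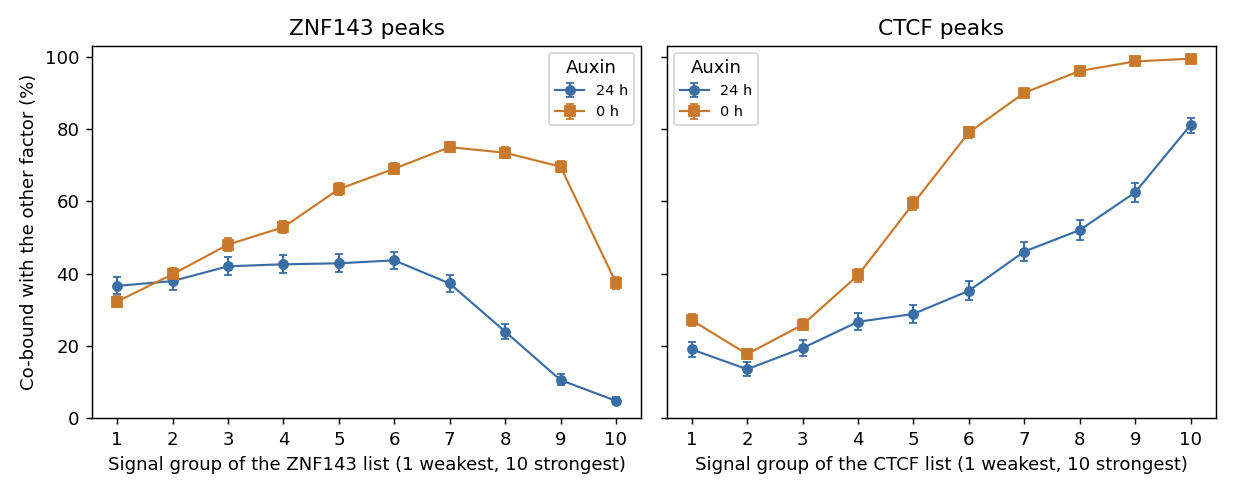
Share of peaks co-bound with the other factor, in percent with 95% binomial intervals, in 10 signal groups of the ZNF143 lists (left) and CTCF lists (right) at 24 h and 0 h of auxin. At 24 h the share is 4.82% in the strongest ZNF143 group and 81.1% in the strongest CTCF group.

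Width followed strength. Co-bound ZNF143 peaks had a median width of 59 bp (quartiles 41.8 and 83) and separate ones 79 bp (44 and 159), and co-bound CTCF peaks 90 bp (62 and 118) against 62 bp (40 and 86). Wider peaks overlap others more easily, so width is not independent of the overlap rule. The summit rule, which does not use width, gave differences of -21 bp for ZNF143 and 27 bp for CTCF, against -20 and 28 bp by overlap. With a reciprocal overlap of 50% the differences were -3 bp for ZNF143 and 17 bp for CTCF. At equal signal the order of ZNF143 widths depended on strength. In the weakest 6 of the 10 groups co-bound ZNF143 peaks were the wider, such as 60 against 51 bp in group 5, and in groups 7 to 10 the separate ones were, such as 176 against 227 bp in the strongest. Co-bound CTCF peaks were wider than separate ones in all 10 groups, by 3 to 11 bp.

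Where the factors met, the ZNF143 peak tended to lie within the CTCF peak. Among 5341 overlapping pairs, ZNF143 was contained in CTCF in 50.3% and CTCF in ZNF143 in 19.8%. Co-bound CTCF peaks were also the wider, with a median of 90 bp against 59 bp for ZNF143. The part of width in these shares was not tested. The median overlap was 51 bp (quartiles 35 and 72). In 79.2% of pairs each summit lay inside the peak of the other factor.

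Summits of the factors were close but rarely at the same base. Over 5423 pairs within 200 bp the median distance at 24 h was 13 bp (quartiles 5 and 29), and the summits fell on the same base in 132. CTCF lay at the higher coordinate in 2654 pairs and at the lower in 2637. Distances of at most 10 bp made up 43.2% of pairs, and 92.2% were within 50 bp. At 0 h the median was 11 bp (5 and 19) over 19481 pairs. Stronger ZNF143 peaks sat closer, with a median of 15 bp in the weakest and 11 bp in the strongest of 4 groups by ZNF143 signal. By CTCF signal the medians were 14 and 13 bp.

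At the same sites the distance at 24 h was the longer. Of 5317 sites with summits of both factors at both times, the median was 9 bp (4 and 18) at 0 h and 13 bp (5 and 29) at 24 h. The 24 h distance was longer at 58.7% of sites, shorter at 37.3% and equal at 4.04%. The extra spread stood mostly between 31 and 50 bp, a range that held 15.5% of sites at 24 h and 4.38% at 0 h. At those 822 sites the 0 h distance had a median of 11 bp, and the 24 h summits of ZNF143 and CTCF lay a median 18 and 19 bp from those of 0 h. Their CTCF signal, 10.3, was that of sites with summits 11 to 30 bp apart (10.3) and close to that of sites within 10 bp (10.5). Exchanging a single library gave values in between: 12 bp with only ZNF143 from 24 h, and 12 bp with only CTCF from 24 h. The summit of a factor itself lay a median 10 bp (ZNF143) and 12 bp (CTCF) from its own 0 h summit, so these distances are of the size of the shifts between libraries. The shortest CTCF peak, taken as a read's footprint, was 24 bp at 24 h and 44 bp at 0 h, so CTCF summits were not read alike at the 2 times. Whether lower counts or the shorter footprint at 24 h widened the distances was not tested.

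**Figure D4:**
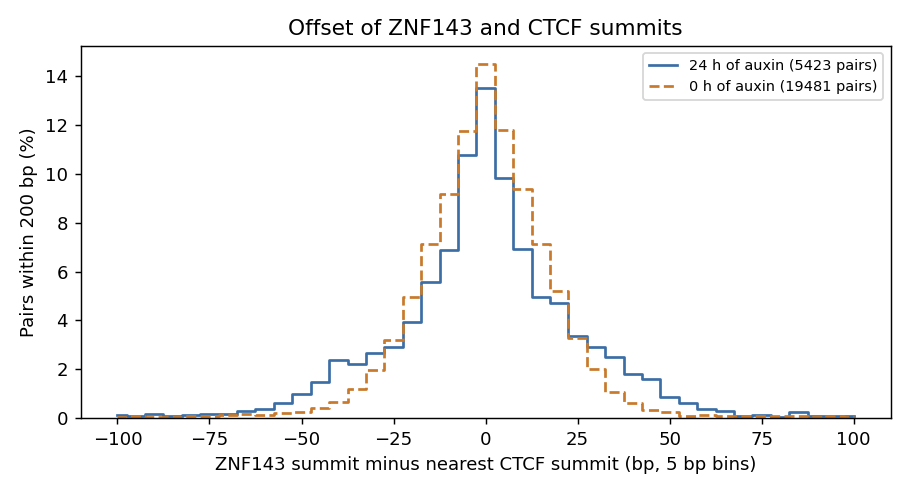
Position of the ZNF143 summit relative to the nearest CTCF summit (bp, bins of 5 bp), as percent of the pairs within 200 bp, at 24 h and 0 h of auxin. Both curves are centred near 0, and the 24 h curve has shoulders between 30 and 50 bp on either side, and 23.01% of 24 h pairs and 9.81% of 0 h pairs lay beyond 30 bp. The axis is drawn to 100 bp on either side.

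The side of CTCF on which cohesin sits gave each site a direction without DNA sequence. The side was read from wild-type CTCF and RAD21 summits 5 to 100 bp apart, with the wild-type CTCF summit within 50 bp of the 24 h one. In knockout cells the same reading gave the same side at 83.2% of 8562 peaks. Relative to 24 h CTCF, ZNF143 lay on the cohesin side in 52.4% (50.9 to 53.9) of 4165 pairs and on the other side in 45.7% (44.2 to 47.2). At 0 h the shares were 50.8% (49.97 to 51.6) and 46.3% (45.5 to 47.1). Wild-type pairs, with the side read from the knockout so that pair and side share no summit, gave 59.8% (59.2 to 60.5) and 37.0% (36.4 to 37.7), whereas by that reading the 24 h pairs gave 52.7% and 45.6%. The excess on the cohesin side was small in the degron line at both times and larger in wild type, in 1 library each.

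Strengths of the factors went together only loosely. Across the 5423 pairs, which share their libraries and depth, the Spearman correlation of ZNF143 and CTCF signal was 0.336 at 24 h, and that of widths 0.305. At 0 h, over 19481 pairs, they were 0.628 and 0.491. The 2 times differ in their sets of pairs and in counts. The median summit count of the CTCF list was 10 reads at 24 h and 34 at 0 h. The part of counts and of the set of pairs in the lower 24 h correlations was not tested.

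Chromosomes 4 and X had the lowest co-bound shares of both factors at 24 h. At 24 h, 16.8% (13.2 to 21.0) of ZNF143 peaks on chromosome 4 and 21.4% (16.9 to 26.4) on X were co-bound, and of CTCF peaks 16.3% (12.8 to 20.2) and 19.3% (15.2 to 23.9). For ZNF143 the interval of X overlapped those of chromosome 19, at 24.3% (21.9 to 26.8), and of chromosome 16, at 25.7% (22.6 to 28.9). At 0 h the ZNF143 shares of chromosomes 4 and X, 61.3% and 63.8%, were above the 56.1% of all chromosomes. Their 0 h CTCF shares, 49.3% (46.4 to 52.1) and 49.9% (46.9 to 53.0), were the lowest of all chromosomes and below the overall 63.3%. The CTCF shares were thus low there before auxin as well. Of the 606 ZNF143 peaks of chromosome 4 that were co-bound at 0 h, 9.57% (58 peaks) had peaks of both factors at 24 h, and of the 533 on X 11.6% (62 peaks), against 27.0% (26.4 to 27.6) overall. Local background moved with this. Its median at 24 h CTCF peaks was 0.125 reads on chromosome 4 and 0.120 on X, against 0.158 (chromosome 22) to 0.242 (chromosome 3) on the others. The 0 h co-bound peaks of chromosomes 4 and X also ranked lower at 0 h, at percentiles 40.3 and 42.1 of ZNF143 signal against 56.4 overall. The part of depth and strength in this difference was not tested. Chromosome 19 differed between the factors, with 24.3% (21.9 to 26.8) of its 1236 ZNF143 peaks co-bound but 46.4% (42.5 to 50.3) of its 647 CTCF peaks.

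**Figure D5:**
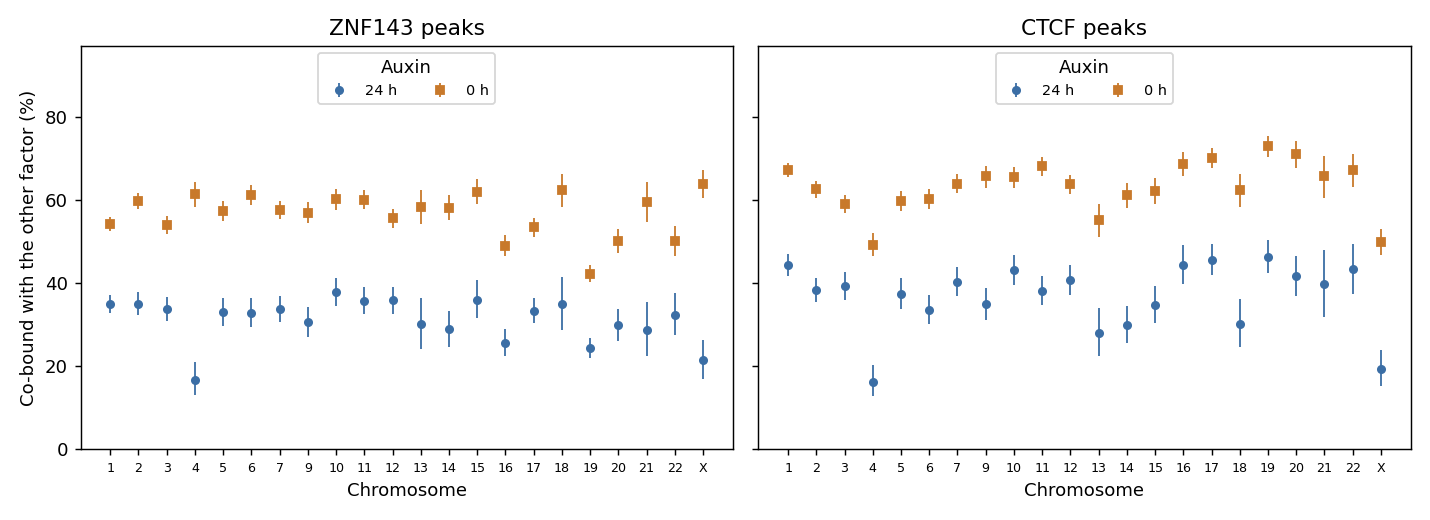
Share of ZNF143 peaks (left) and CTCF peaks (right) co-bound with the other factor on each chromosome except chromosome 8, which is not plotted, in percent with 95% binomial intervals, at 24 h and 0 h of auxin. At 24 h chromosome 4 is lowest in both panels, at 16.8% and 16.3%.

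Single sites show the 3 kinds of place. Coordinates are 1-based on hg19, the build in the submitters' processing notes. The first of the 4 highest co-bound pairs lies at positions 196625621 to 196625772 of chromosome 3. Its ZNF143 signal at 24 h was 27.4, at percentile 99.6 of the list (99.3 at 0 h), and its CTCF signal 31.3 was the highest of the 24 h CTCF list (percentile 99.9 at 0 h). The 24 h summits were 7 bp apart, and all 9 lists held a peak there. The second pair, at 23827863 to 23827914 of chromosome 22, had 24 h signals of 28.4 for ZNF143 and 19.2 for CTCF, with summits 5 bp apart. The third, at 18688343 to 18688401 of chromosome 22, had 26.3 and 21.6 and summits 2 bp apart. The fourth, at 70327447 to 70327540 of chromosome 9, had 26.5 and 17.5 and summits 3 bp apart. These were narrow peaks for their strength: the ZNF143 widths were 152, 52, 59 and 94 bp, against a median of 176 bp for co-bound peaks of the strongest signal group. The last 3 of these sites also had peaks in all 9 lists.

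The 4 separate ZNF143 peaks of highest signal stood at percentile 99.8 or above of the 0 h ZNF143 list as well. By summit count they were not the highest. Their 24 h counts were 56, 51, 55 and 52 reads, below the ceiling of 58 that 7.31% of separate ZNF143 peaks reached. Signals of separately made lists are not compared, so each value belongs to its own list. At 224822017 to 224822200 of chromosome 2 the 24 h signal was 32.1, with no CTCF peak in any list and weak RAD21 peaks in wild type (6.65) and knockout (12.1). At 6374700 to 6374956 of chromosome 4 it was 31.5, and there was neither a CTCF nor a RAD21 peak in any list. At 134478573 to 134478753 of chromosome X it was also 31.5, again without CTCF or RAD21, although a 0 h CTCF summit lay at -1754 bp. At 106584290 to 106584447 of chromosome 10 it was 31.4, with RAD21 signals of 6.01 in wild type and 10.2 in the knockout and no CTCF peak.

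The 4 strongest separate CTCF peaks all had ZNF143 peaks in wild type and at 0 h. This was common to the class, at 94.0% of separate CTCF peaks in wild type and 91.1% at 0 h. Among all 24 h CTCF peaks the shares were 96.0% and 94.3%. At 43105899 to 43106039 of chromosome 5 the CTCF signal at 24 h was 26.1, and a ZNF143 peak of signal 19.9 stood there at 0 h, at percentile 91.3 of its list. At 74959782 to 74959966 of chromosome 11 the values were 23.4 for CTCF and 21.0 for the 0 h ZNF143 peak, at percentile 93.3. At 135523262 to 135523437 of chromosome 10 they were 22.6 and 18.4, at percentile 87.3, and a 24 h ZNF143 summit lay 1159 bp away. At 46386704 to 46386890 of chromosome 19 they were 21.3 and 5.58. The fold of this 0 h ZNF143 peak was low, at percentile 5.27, while its summit count of 34 reads was above the list's median of 17. A ZNF143 peak was thus listed at both times at the first 8 sites, and at 0 h but not at 24 h at the last 4.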

How the data were processed

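ChIP-nexus peak lists of 9 libraries, 1 per group, were used as deposited by the authors, per sample. Per the submitters' processing notes, cutadapt 2.10, Bowtie2 2.3.5.1, SAMtools 1.12, MACS2 2.2.7.1 and deepTools were used with build hg19 (GRCh37). Settings, filters and pooling of cultures are not given in the sources used here. The deposited values are a score, the fold enrichment (a ratio, called signal), −log10 p and −log10 q, read from the narrow-peak layout. The lowest deposited −log10 q was 5.00 in the knockout lists and 3.00 to 3.02 in the others.

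Groups came from sample titles. Overlap by 1 bp and nearest summits (start plus summit offset) within 200 bp were computed on chromosomes 1 to 22 and X. The 9 lists also held peaks on other sequences, which were left out. Shares carry Clopper-Pearson intervals and differences Newcombe intervals. Summit counts and local background were solved from the ratio and −log10 p under a Poisson model in which 1 is added to both count and background, a form taken from what the values fit: whole counts matched −log10 p within 0.002 for 100% of peaks. Background per kb is the lowest solved background divided by the shortest peak width, taken as a read's footprint. The ceiling is the highest solved count of a list. Named sites are the 4 co-bound pairs with the best worse rank in their lists and the 4 separate peaks of highest signal of each factor, outside chromosome 8. A genome and gene models of hg19 were not used here, so no sequences and no genes are given, and the gene lists planned were not applied. Sites, lists and tests were chosen with earlier results of these data known. Computation used scipy 1.17.1 and pandas 2.3.3 under Python 3.11.15, with numpy 2.4.6, and plots matplotlib 3.10.9. Checked against all-pairs counts on 202 ZNF143 peaks of chromosome 21, overlaps and distances differed at 0 peaks.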

Additional observations from a re-analysis of the deposited data

Results flagged for a closer look

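The order of co-bound and separate ZNF143 peaks was opposite at the 2 time points. The median ZNF143 signal of co-bound minus separate peaks was -1.54 at 24 h and 2.59 at 0 h, and 0.146 in wild-type cells. The median width difference was -20 bp at 24 h and 18 bp at 0 h, and 1 bp in wild-type cells. The wild-type library thus showed little of the order seen at 0 h in the degron line. Both were singled out because the sign differs between time points with 1 library each, so the difference between times was not tested.

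The 24 h lists also held peaks outside chromosomes 1 to 22 and X, 433 for ZNF143 and 153 for CTCF. The other lists of the series held 441 to 638 such peaks each. Peaks outside these chromosomes entered no comparison.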

How the results depend on the processing

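The 11 main results were recomputed in 56 alternatives. Of these 17 fell inside the 95% interval of the reported value, 39 outside it, and 0 had the opposite sign. Intervals are narrow because the lists are long. The median summit count of the 24 h CTCF list was 10 reads, and fewer reads and less binding cannot be told apart in it. The cause of a move was not tested unless the construction gives it, such as fewer peaks. Limits on local background, the use of summit counts in place of signal and the check of named sites were chosen after the data were seen.

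A reciprocal overlap of 50% gave co-bound shares of 20.2% (ZNF143) and 23.9% (CTCF), signal differences of -0.566 and 2.13, width differences of -3 and 17 bp, and 5.86% of separate ZNF143 peaks at a 0 h CTCF peak. At a −log10 q of at least 5 the shares were 31.4% and 37.2% by overlap and 32.2% and 37.6% by summits, the signal differences -1.93 and 2.38, and the width differences -24 and 26 bp. With both lists at 13865 peaks the CTCF share was 31.9% by overlap, and by summits the shares were 32.2% and 32.4%. In the stronger 50% of the lists the shares were 19.9% and 23.6% by overlap and 20.01% and 23.6% by summits, and the median distance was 11 bp. Summit windows of 50, 100 and 500 bp gave 30.5%, 32.1% and 34.6% for ZNF143 and 36.1%, 38.1% and 39.9% for CTCF. Peak middles in place of summits gave a median distance of 11 bp. The summit rule put 8.92% of separate ZNF143 peaks at a 0 h CTCF peak. Without peaks at the ceiling count the ZNF143 differences were -1.02 in signal and -14 bp in width. Summit counts in place of signal differed by -5 reads for ZNF143 and 5 for CTCF. With −log10 q in place of signal the rank correlation was 0.230. With local background at most 5 times the floor, which left out 2023 ZNF143 and 1055 CTCF peaks, the shares were 30.7% and 34.5% and the median distance 15 bp.

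At the 12 named sites, peak middles kept every pair on the same side of 200 bp. No paired analysis was possible because each group has 1 library. Leaving out a replicate was not run for the same reason.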

Other observations

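In the knockout lists, though not in the wild-type ones, the order of co-bound and separate 24 h CTCF sites depended on the measure used to rank them. In the wild-type CTCF list the median percentiles were 87.0 for co-bound and 79.2 for separate sites by signal, 89.0 and 78.9 by −log10 q, and 90.7 and 78.1 by summit count. In the wild-type RAD21 list they were 80.7 and 79.6, 83.6 and 79.9, and 87.4 and 80.6 by the same measures. In the knockout CTCF list the order by signal was the opposite, 78.5 against 80.5. By −log10 q it was 85.8 against 82.1 in the knockout, and by summit count 90.1 against 83.4. For knockout RAD21 the values were 66.8 against 75.9 by signal, 76.8 against 80.3 by −log10 q and 93.9 against 85.0 by summit count. In that list 12.3% of all peaks were at the ceiling count. The opposite orders were not tested further.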
